A study of Mus musculus with 6 samples.

Results

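Interferon-stimulated genes are the genes that cells switch on when an interferon binds its receptor, and 40 of them, listed by name, were followed through 6 arrays of immortalized bone marrow-derived stem cells (BMSC). Each gene was read from a probe set annotated to that gene alone, and where a gene had several, from the brightest on average over the 6 arrays (mean of log2 signals). In this way 37 of the 40 genes were measured, among 18193 genes with a probe set of their own. Isg15, Tgtp1 and Ifi44 had no such probe set and are not analysed here.

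The cells came from H-2Kb-tsA58 mice (Immortomouse, CBA/ca × C57Bl/10 hybrid), in which the H-2Kb promoter drives a temperature-sensitive SV40 large T antigen that immortalizes cells kept at 33°C. Naïve Large T BMSC (replicates 1, 3 and 5) were the parent cells, cultured from bone marrow and never injected. The iLarge T BMSC (replicates 2, 4 and 6) were the same kind of cells after intravenous injection into male C57BL/6J mice, 6 to 8 weeks old, 24 h after the onset of a 60 min occlusion of the middle cerebral artery. They were recovered from the ischemic hemisphere 14 days later and grown at 33°C, the temperature at which the parent cells were grown too, and the cells of both groups carry the transgene. Recovery and regrowth went together with the stroke, and no cells recovered from brain without a stroke are on these arrays, so the effects of injury, of recovery and of culture cannot be told apart. Each array received a pool of RNA, from 3 hemispheres or from 3 cultures of naïve cells. The paper reports Large T antigen in all recovered cells and few parent cells positive for leukocyte markers. It also reports no growth from infarcted tissue of mice given wild-type cells or saline. Whether each culture held a single cell type was not tested here. Since each array holds RNA of many cells together, fewer cells of a type and less RNA per cell cannot be told apart.

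Type I interferons bind Ifnar1 and Ifnar2, and the kinases Jak1 and Tyk2 then start a signal in which Stat2 and Irf9 take part and which reaches interferon-stimulated response elements in promoters. Interferon gamma acts through Ifngr1 and Ifngr2 and reaches gamma-activated sites. The induced genes encode sensors of foreign nucleic acid, enzymes that block viral RNA and protein synthesis, GTPases and the feedback regulators of the pathway. The H-2Kb promoter that drives the transgene is itself interferon-inducible.

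Promoter sequences show what many of these genes share. In RefSeq promoters (GRCm38.p6, 250 bases before to 50 after each start), 31 of the 40 genes had an entry. The core of the response element, searched as GAAANNGAAA on either strand with no mismatch, occurred in 16 of the 31 (51.6%) and in 3.99% of 27025 genes. The gamma-activated site, searched as TTCNNNGAA, a palindrome that reads alike on both strands, occurred in 8 of the 31 (25.8%) and in 9.55% of all. For 8 members with a match that the results turn on, 100 bases upstream of the start follow, 5′ to 3′ along the gene, with every response element match in capitals (TTTCNNTTTC is the same core on the other strand).
Rsad2, chr12:26456543-26456642, minus strand: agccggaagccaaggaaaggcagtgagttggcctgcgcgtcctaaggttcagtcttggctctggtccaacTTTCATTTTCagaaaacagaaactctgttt
Ifit1, chr19:34640734-34640833, plus strand: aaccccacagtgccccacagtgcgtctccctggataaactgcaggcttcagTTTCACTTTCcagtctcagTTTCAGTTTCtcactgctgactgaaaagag
Ifit3, chr19:34583337-34583436, plus strand: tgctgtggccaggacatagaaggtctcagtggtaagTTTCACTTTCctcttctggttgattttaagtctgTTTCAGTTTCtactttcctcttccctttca
Irgm1, chr11:48871421-48871520, minus strand: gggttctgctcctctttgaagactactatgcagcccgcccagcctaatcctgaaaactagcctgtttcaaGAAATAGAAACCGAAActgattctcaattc
Bst2, chr8:71537567-71537666, minus strand: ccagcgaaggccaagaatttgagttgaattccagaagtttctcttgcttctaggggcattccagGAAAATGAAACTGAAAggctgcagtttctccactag
Trim30a, chr7:104465200-104465299, minus strand: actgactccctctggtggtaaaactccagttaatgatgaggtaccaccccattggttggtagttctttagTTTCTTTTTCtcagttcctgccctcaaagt
Gbp3, chr3:142559935-142560034, plus strand: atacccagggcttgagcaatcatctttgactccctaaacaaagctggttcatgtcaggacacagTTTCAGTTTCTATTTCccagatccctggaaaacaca
Igtp, chr11:58199452-58199551, plus strand: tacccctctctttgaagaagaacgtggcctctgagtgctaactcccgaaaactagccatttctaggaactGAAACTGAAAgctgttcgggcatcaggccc

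Of the 3 members called in the comparison of the groups, Bst2 is shown, and Oasl1 and Ifit2 have entries with 0 matches. In Ifit1 and Ifit3 the core occurs at 2 separate places, and in Irgm1, Bst2 and Gbp3 a pair of matches overlaps. A match is a run of letters, and its use in these cells was not measured. Among measured members, the 14 with a match in their promoter had a median difference in log2 signal between naïve replicate 1 and the mean of naïve replicates 3 and 5 of 3.11 (0.82 to 5.37), and the 14 without had 1.96 (-0.18 to 3.61). These ranges overlap, and both are given as a description.

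A pair of arrays stood apart, naïve replicate 1 by its correlations and iLarge T replicate 6 by markers of other cell types. Naïve replicate 1 correlated with naïve replicates 3 and 5 at r = 0.829 and 0.831 over all probe sets (log2 signal), against 0.892 between replicates 3 and 5. Over the 37 members the same values were 0.723, 0.723 and 0.931. Among the iLarge T arrays, r over all probe sets was 0.849 (replicates 2 and 4), 0.845 (2 and 6) and 0.863 (4 and 6). Over the members these values were 0.826, 0.791 and 0.937, so that replicate 2 was the least alike of the iLarge T arrays. On replicate 2, 10 members were near background. Replicate 6 of the iLarge T arrays carried macrophage and endothelial transcripts: the signals of 17 macrophage and microglia markers summed to 184979 there, to 9675 and 10395 on iLarge T replicates 2 and 4 and to between 5854 and 12669 on the naïve arrays, and those of 8 endothelial markers to 52625 against at most 9917 elsewhere. Single markers were raised on the other iLarge T arrays too: Cdh5 read 2211 and 2787 and Emcn 2857 and 2917 on replicates 2 and 4, against at most 210 and 122 on the naïve arrays, while Tek made up most of the naïve endothelial sum. Cdh5, Emcn and the macrophage marker Csf1r were called higher in iLarge T cells (limma adjusted p = 0.00760, 0.00477 and 0.0151), and the call of Csf1r was lost when any of 4 single arrays was left out (0.0517 to 0.0806). Of the 8 endothelial markers 1 was called lower, and of the 17 macrophage and microglia markers 0 (all genes: 3.54% higher and 3.26% lower). Of 13 stromal markers measured, 0 were near background on any array, and 8 lymphocyte markers summed to at most 1525. Near background here means under the 40th percentile of an array, which lay between 183 and 300 signal units.

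The members' signals were far higher on naïve replicate 1 than on any other array. Their median signal was 15252 there, 2035 and 1954 on the other naïve arrays (replicates 3 and 5), and 1052, 1320 and 2739 for iLarge T replicates 2, 4 and 6. Naïve replicate 1 was the highest of the 6 arrays for 35 of 37 members (all genes: 19.9%). It exceeded both other naïve arrays at least 2-fold for 30 of 37 (all genes: 15.5%) and at least 4-fold for 25 (all genes: 6.12%), and was 2-fold below both for 0 (all genes: 14.2%).

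The median difference in log2 signal between naïve replicate 1 and the mean of the other naïve arrays was 2.82 over the members, 7.08-fold, with a range of -0.18 to 6.66, against 0.07 over all 18193 genes. After quantile normalization the median was 2.85. By contrast, naïve replicates 3 and 5 lay within 2-fold of each other for 33 of 37 members (all genes: 75.9%). With a single array on the high side there is no replicate of this difference and no test of it. The same direction held in the members' other probe sets, of which 24 belong to 16 genes: all 24 were higher on naïve replicate 1 than the mean of replicates 3 and 5, 21 of them at least 2-fold.

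**Figure D1:**
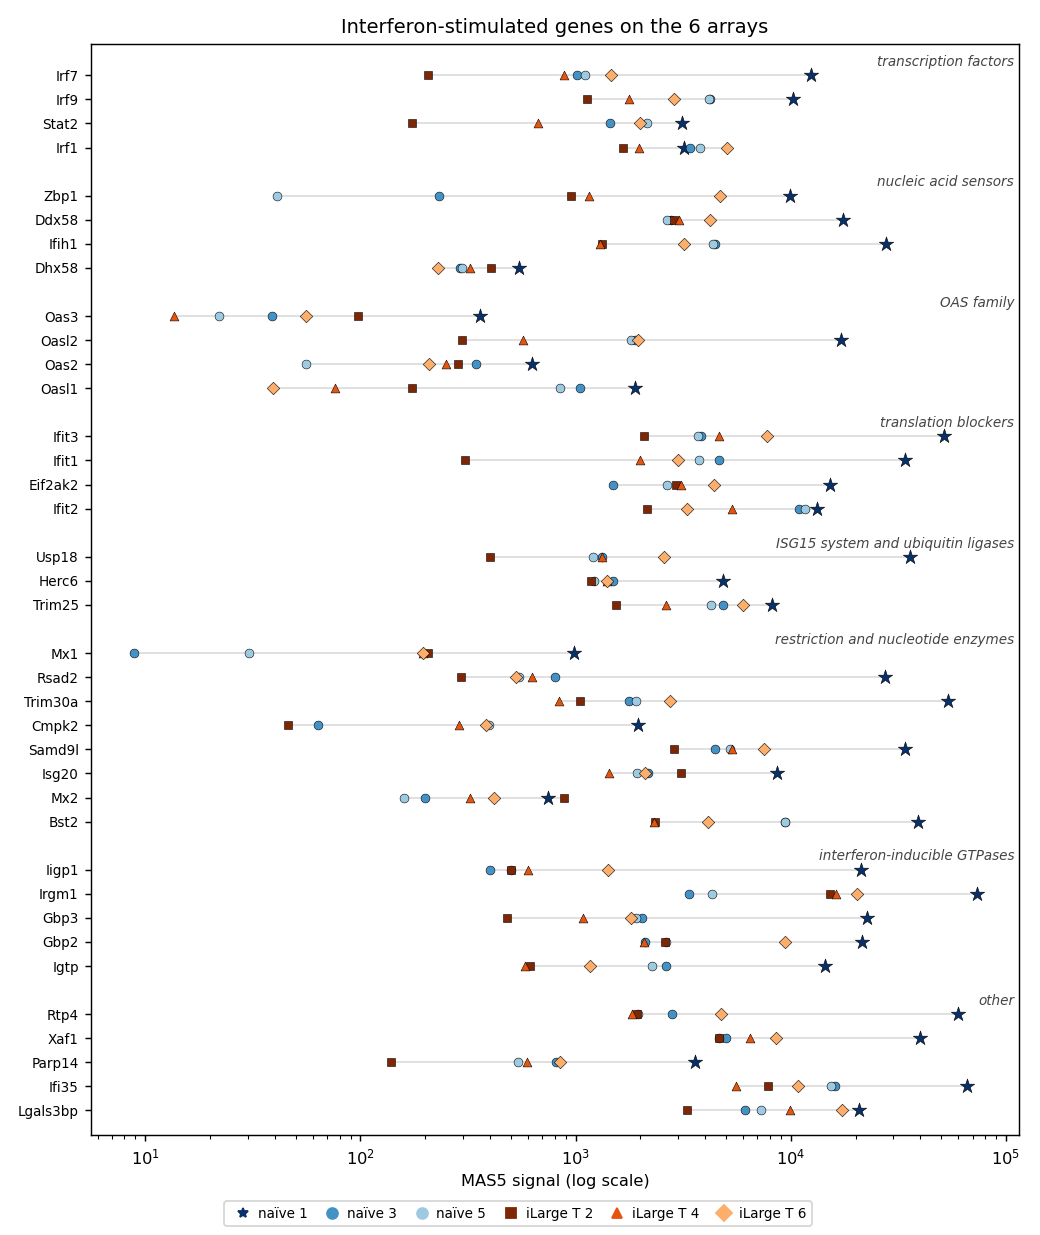
Signal of the 37 measured interferon-stimulated genes on each array (MAS5 signal, log axis), grouped by role, with blue symbols for the naïve arrays and red to orange for the iLarge T arrays. The star of naïve replicate 1 is the rightmost symbol for 35 of 37 genes, while naïve replicates 3 and 5 lie close together for most.

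**Figure D2:**
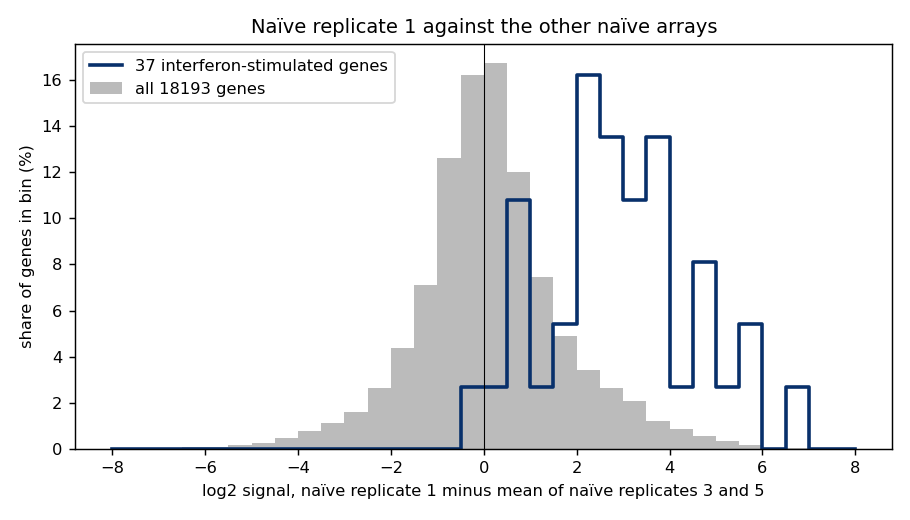
Distribution of the difference in log2 signal between naïve replicate 1 and the mean of naïve replicates 3 and 5 (x axis), as the share of genes per bin (y axis, percent), for all 18193 genes (grey) and the 37 members (blue line). All genes centre near 0 with a median of 0.07, and the members have a median of 2.82.

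Among the transcription factors of the pathway, Irf7, which amplifies the response, had naïve signals of 12436, 1020 and 1108 (replicates 1, 3 and 5, the order used throughout) and iLarge T signals of 206, 885 and 1454 (replicates 2, 4 and 6). Naïve replicate 1 was thus 11.2-fold above the higher of the other naïve arrays, and those lay within the iLarge T range. Irf9, the DNA-binding partner of Stat2, gave 10190, 4216 and 4171 on the naïve arrays and 1127, 1770 and 2861 on the iLarge T arrays. All 3 iLarge T values of Irf9 were below all 3 naïve values. The difference in log2 signal between iLarge T and naïve arrays was -1.66 (SE 0.45, limma adjusted p = 0.0707), short of a call. Stat2 was less raised on naïve replicate 1, at 1.77-fold of the mean of the other naïve arrays. Irf1 was not raised there, at 0.884-fold of that mean, and was highest on iLarge T replicate 6.

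Sensors of viral nucleic acid followed. Zbp1, which recognises Z-form nucleic acid and can trigger necroptosis, read 9871 on naïve replicate 1 and 232 and 40.8 on replicates 3 and 5, the last of these near background. On the iLarge T arrays Zbp1 read 950, 1156 and 4696, all between naïve replicate 1 and the other naïve arrays. Ifih1, the MDA5 sensor of long double-stranded RNA, read 27592, 4438 and 4338 on the naïve and 1326, 1301 and 3179 on the iLarge T arrays, with no overlap. Ddx58 (RIG-I) was 6.32-fold higher on naïve replicate 1 than on the higher of the others. Dhx58, a regulator of both, was 1.86-fold above their mean with the probe set used, while its other probe sets were higher there by 2.32 and 2.91 on the log2 scale. In both of those, all iLarge T values were near background and below all naïve values. Their log2 fold changes were -2.76 and -4.19 (limma adjusted p = 0.219 and 0.0678, not called), against -0.22 with the probe set used, in which the groups overlapped.

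OAS enzymes sense double-stranded RNA and make 2-5A, the signal that activates RNase L. Oasl2 read 17096, 1894 and 1807 on the naïve and 298, 569 and 1956 on the iLarge T arrays, so that iLarge T replicate 6 reached the level of naïve replicates 3 and 5. Oasl1, which restrains translation of Irf7, behaved otherwise: it read 1881, 1052 and 845 on the naïve arrays and 174, 76.1 and 39.3 on the iLarge T arrays. The highest iLarge T value of Oasl1 was below the lowest naïve value, and all 3 iLarge T values were near background. Oas3 was at 360 on naïve replicate 1, at 38.9 and 22.1 on the other naïve arrays and at 97.3, 13.7 and 55.7 on the iLarge T arrays, near background on all but naïve replicate 1. Oas2 was 1.82-fold above the higher of the other naïve arrays.

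Ifit proteins bind viral RNA or the translation factor eIF3. Ifit1 read 33964, 4660 and 3740 on the naïve and 308, 1997 and 2995 on the iLarge T arrays, again with no overlap. Ifit3 read 51338, 3824 and 3695 on the naïve and 2069, 4625 and 7788 on the iLarge T arrays, which straddled naïve replicates 3 and 5. Ifit2 stood alone among the 3 in not being raised on naïve replicate 1: it read 13227, 10871 and 11641 on the naïve arrays and 2150, 5340 and 3287 on the iLarge T arrays. Eif2ak2 (PKR), the kinase that stops translation initiation, was 5.73-fold higher on naïve replicate 1 than on the higher of replicates 3 and 5.

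Usp18 removes ISG15 from proteins and dampens the type I receptor. It read 36015, 1333 and 1207 on the naïve arrays and 402, 1320 and 2570 on the iLarge T arrays, a 27.0-fold excess of naïve replicate 1 over the higher of the other naïve arrays, which fell within the iLarge T range. Herc6, an ISG15 ligase in the mouse, was 3.25-fold and Trim25, a ubiquitin ligase of the RIG-I pathway, 1.69-fold higher on naïve replicate 1 by the same measure.

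Restriction factors and nucleotide enzymes were raised on naïve replicate 1 for 8 of 8 members. Rsad2 encodes viperin, which makes a chain-terminating nucleotide, and its promoter stretch is shown above. It read 27366, 802 and 544 on the naïve arrays and 293, 627 and 531 on the iLarge T arrays, and naïve replicate 1 was 34.1-fold above the higher of the other naïve arrays. Trim30a, a regulator of NF-κB signalling, read 53943, 1769 and 1900 on the naïve and 1052, 840 and 2739 on the iLarge T arrays. For both, naïve replicates 3 and 5 were not separated from the iLarge T arrays.

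Cmpk2, a mitochondrial nucleotide kinase and genomic neighbour of Rsad2, read 1943, 63.3 and 398 on the naïve and 46.2, 286 and 384 on the iLarge T arrays. Mx1, a GTPase that blocks influenza virus, was read on naïve replicate 1 at 985 and was near background on naïve replicates 3 and 5, at 8.83 and 30.4. Its iLarge T values, 207, 195 and 196, were near background on replicates 2 and 4 and just above the limit on replicate 6. Bst2 (tetherin), which holds budding virions at the cell surface, read 39171, 9430 and 9412 on the naïve arrays and 2327, 2309 and 4139 on the iLarge T arrays. The Bst2 groups did not overlap, and naïve replicate 1 was 4.15-fold above the others. Samd9l, Isg20 and Mx2 exceeded the higher of naïve replicates 3 and 5 by 6.57-fold, 3.97-fold and 3.75-fold on naïve replicate 1, and Mx2 was highest on iLarge T replicate 2.

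Interferon-inducible GTPases attack the vacuoles of intracellular pathogens, and 5 of 5 were raised on naïve replicate 1. Iigp1 read 21223, 402 and 502 on the naïve and 501, 600 and 1412 on the iLarge T arrays. Irgm1, a regulator of the other GTPases of its family, read 73033, 3369 and 4322 on the naïve and 15223, 16143 and 20344 on the iLarge T arrays. Irgm1 thus had a low pair, an intermediate trio and a single high array, with no overlap between naïve replicates 3 and 5 and the iLarge T arrays.

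Gbp3 read 22616, 2035 and 1904 on the naïve and 481, 1078 and 1801 on the iLarge T arrays. Igtp (Irgm3) read 14454, 2645 and 2271 on the naïve and 613, 583 and 1163 on the iLarge T arrays. In neither of them did the groups overlap, although iLarge T replicate 6 came close to naïve replicate 5 for Gbp3. Gbp2 was 8.17-fold higher on naïve replicate 1 than on the higher of the other naïve arrays, and its iLarge T values ran from 2071 to 9404, the highest on replicate 6.

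Of the remaining members, Rtp4, a chaperone of receptors that is strongly interferon-induced, read 59880, 2794 and 1954 on the naïve and 1929, 1835 and 4729 on the iLarge T arrays. Ifi35, a partner of Nmi, read 65626, 16088 and 15328 on the naïve and 7857, 5549 and 10829 on the iLarge T arrays. The Ifi35 groups did not overlap, those of Rtp4 did. Xaf1, Parp14 and Lgals3bp exceeded the higher of naïve replicates 3 and 5 by 7.96-fold, 4.43-fold and 2.83-fold on naïve replicate 1.

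The comparison of 3 iLarge T with 3 naïve arrays asks which genes changed in cells that had passed through the ischemic brain. Oasl1, Ifit2 and Bst2 fell, and 0 members rose. A call needs an adjusted p under 0.05 in limma, with Benjamini-Hochberg adjustment over 45037 probe sets, and a change of at least 2-fold. Over all genes 3.26% were called lower and 3.54% higher. The fall of Oasl1 was at least 4.81-fold, since all its iLarge T values were near background (fitted log2 fold change -3.88, SE 0.77, limma adjusted p = 0.0201). Ifit2 fell from 11913 ± 1201 to 3593 ± 1617 (mean ± SD, n = 3 arrays each), a log2 fold change of -1.82 (SE 0.34, limma adjusted p = 0.0143). Bst2 fell from 19338 ± 17176 to 2925 ± 1051, a log2 fold change of -2.43 (SE 0.52, limma adjusted p = 0.0290).

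These calls rest on few arrays. With a single array left out, Oasl1 missed the threshold in 4 cases, namely naïve replicates 3 and 5 (limma adjusted p = 0.0966 and 0.0709) and iLarge T replicates 4 and 6 (0.0636 and 0.0518). Ifit2 missed it in 3, naïve replicates 3 and 5 (0.0543 and 0.0517) and iLarge T replicate 6 (0.0609). Bst2 missed it when any iLarge T array was left out (0.116, 0.125 and 0.0610 for replicates 2, 4 and 6).

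Before adjustment, 11 members were lower and 0 higher at p under 0.05 (all genes: 10.5% and 11.6%). In 9 of 37 members (Irf9, Ifih1, Oasl1, Ifit1, Ifit2, Bst2, Gbp3, Igtp and Ifi35) all iLarge T arrays lay below all naïve arrays (all genes: 13.1%), and in 0 all lay above (all genes: 14.5%). The median log2 fold change of the 37 members was -1.09 (-3.88 to 1.93), that of all genes 0.06, and 32 members had a negative value (all genes: 47.5%). Rsad2, with a log2 fold change of -2.31 (SE 1.22), and Ifit1, with -2.78 (SE 0.95), were not called (limma adjusted p = 0.377 and 0.149).

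Without naïve replicate 1, the common direction was gone. The median log2 fold change was -0.03 (-3.55 to 4.15, all genes 0.07) and 19 of 37 members were negative (all genes: 47.2%). Called lower were Oasl1, Ifit2, Bst2 and Igtp (all genes: 6.67%), and called higher were Zbp1 and Irgm1 (all genes: 7.13%). Irgm1 had a log2 fold change of 2.16 (SE 0.24, limma adjusted p = 0.000461) where the comparison with 3 naïve arrays gave 0.74 (SE 0.94, limma adjusted p = 0.765). For Zbp1 the values were 4.15 (SE 0.90, limma adjusted p = 0.0156) and 1.93 (SE 1.61, limma adjusted p = 0.620), with naïve replicate 5 near background.

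Igtp had a log2 fold change of -1.72 (SE 0.42, limma adjusted p = 0.0276) without naïve replicate 1 and of -2.57 (SE 0.66, limma adjusted p = 0.0570) with it. Ifit2 and Bst2 were lower by nearly the same amount, -1.75 and -1.74 (limma adjusted p = 0.0112 and 0.00548), and Oasl1 was at -3.55 (limma adjusted p = 0.0403). Relative to naïve replicates 3 and 5 alone, all iLarge T arrays were lower for 9 of 37 members (all genes: 23.3%) and higher for 6 (all genes: 24.5%), shares that do not set the members apart as a list. The 6 were Irgm1, Zbp1, Ddx58, Eif2ak2, Mx1 and Mx2, and naïve replicates 3 and 5 were both near background for Mx1 and Mx2. Other probe sets of Ddx58, Zbp1 and Eif2ak2 did not all keep this order. In a Ddx58 probe set never near background, naïve replicates 3 and 5 read 971 and 930. Its iLarge T values, 510, 598 and 508, were all lower. The groups overlapped in another of Ddx58 and in that of Zbp1, near background on 5 and 4 arrays. Of those of Eif2ak2, the dimmer overlapped and the brighter kept the order.

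**Figure D3:**
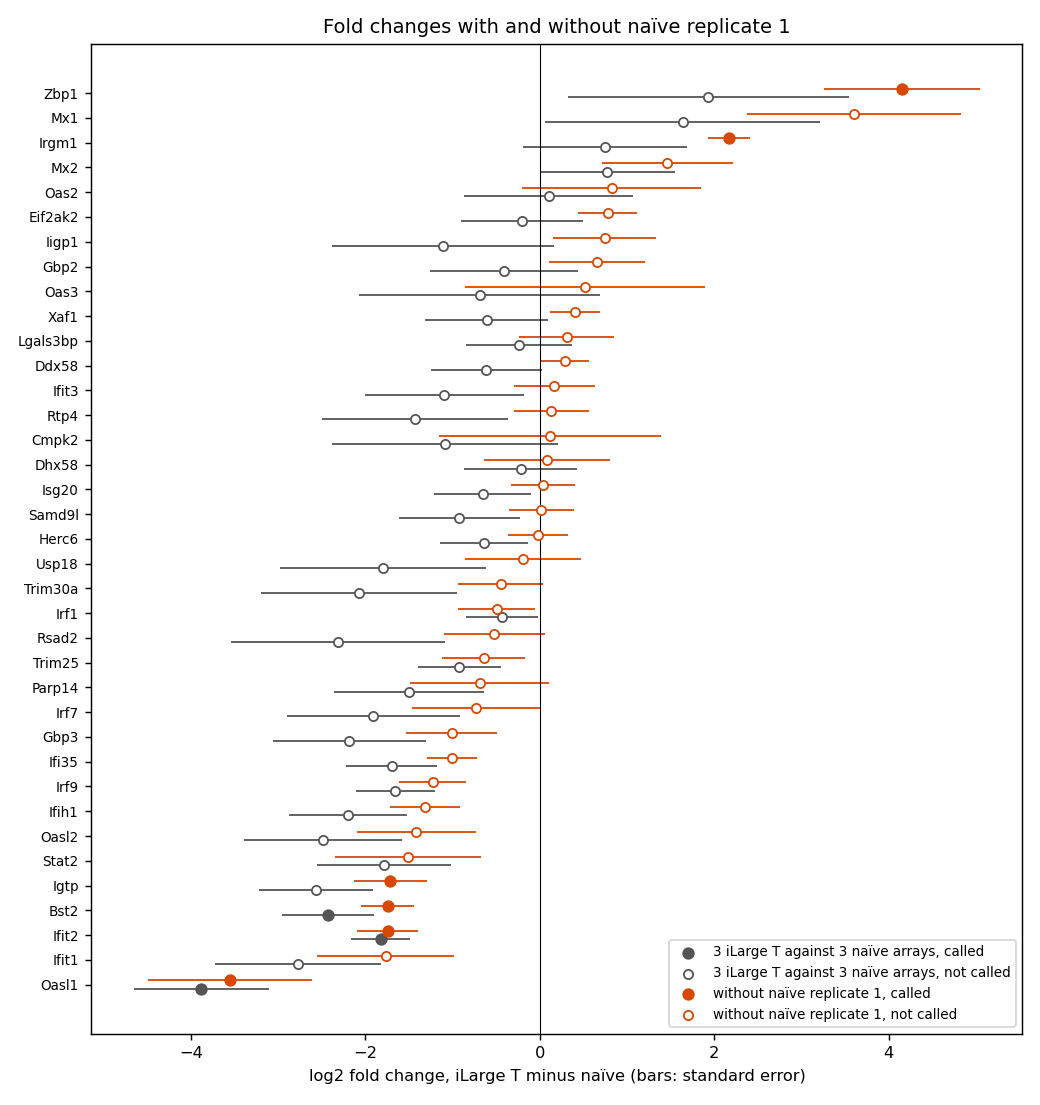
Log2 fold change of each measured member, iLarge T minus naïve (x axis, bars are the standard error), for 3 against 3 arrays (grey) and without naïve replicate 1 (orange), filled where called. Most grey points lie left of 0, with a median of -1.09, and the orange points spread over both sides, with a median of -0.03.

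The iLarge T arrays also differed among themselves. Replicate 6 was the highest of the 3 for 27 of 37 members (29.2% of all genes) and replicate 2 the lowest for 23 (35.8% of all genes). Replicate 6 is the array with the highest macrophage and endothelial sums. Its macrophage marker Lyz2 read 78316, and it was the highest iLarge T array for 15 of the 17 macrophage and microglia markers and 8 of the 8 endothelial markers. The part of these markers' source cells in the members' levels on that array was not tested. The paper reports Large T antigen in all recovered cells, and which cells gave the macrophage and endothelial transcripts was not tested either. With both naïve replicate 1 and iLarge T replicate 6 left out, 8 members were called lower (Irf9, Ifih1, Oasl1, Oasl2, Ifit2, Bst2, Igtp and Ifi35) and 1, Irgm1, higher, while 1321 of 18193 genes were called lower and 1211 higher. This setting was added after the data had been seen, and leaves 2 arrays a group. On naïve replicate 1, 9 of the 17 macrophage markers were near background, with Ptprc at 161, Itgam at 10.6 and C1qa at 18.9. On naïve replicates 3 and 5, 10 and 11 were. Of the 17, 9 were at least 2-fold higher on naïve replicate 1 than on both other naïve arrays (all genes: 15.5%). Another 3 were at least 2-fold lower (all genes: 14.2%), and the sum of the 17 there, 5854, was the lowest of the 6 arrays.

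The other genes of the pathway did not share the pattern evenly. Of the interferon ligands 9 of 15 were measured, 7 of them near background on all 3 naïve arrays, and 0 were called. On naïve replicate 1, 5 of the 9 were at least 2-fold higher than on both other naïve arrays (all genes: 15.5%) and 0 at least 2-fold lower (all genes: 14.2%). Of these 5, all but Ifnb1 were near background there as well. Ifnb1 (interferon beta) read 736, 198 and 132 on the naïve and 354, 307 and 78.7 on the iLarge T arrays, near background on naïve replicates 3 and 5 and on iLarge T replicate 6. All 9 receptor and kinase genes were measured. Of these 0 were called, 0 were at least 2-fold higher on naïve replicate 1 than on both others, and 1, the kinase Jak2, was at least 2-fold lower. Over the 6 arrays the highest signal exceeded the lowest by 1.36-fold for Ifnar1, 2.36-fold for Ifnar2, 1.71-fold for Ifngr1, 2.49-fold for Ifngr2, 2.25-fold for Jak1, 2.43-fold for Jak2, 2.0-fold for Tyk2, 2.87-fold for Il10rb and 8.09-fold for Ifnlr1, which was near background on iLarge T replicate 6.

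Of 8 negative regulators 0 were called, and Socs1 was near background or little above it, at 59.5, 202 and 139 on the naïve arrays and 211, 278 and 101 on the iLarge T arrays. Of 10 measured genes that induce interferon, Cgas, the cytosolic DNA sensor, fell (log2 fold change -1.77, SE 0.41, limma adjusted p = 0.0401) and 0 rose. That call was kept without naïve replicate 1 and lost when any other array was left out (limma adjusted p from 0.0685 to 0.147). Of 4 other IRF genes 0 were called.

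A second list of interferon-stimulated genes had 52 of 60 measured. Of these, 28 were at least 2-fold higher on naïve replicate 1 than on both other naïve arrays (all genes: 15.5%) and 3 were as much lower (all genes: 14.2%). In iLarge T cells 8 fell (all genes: 3.26%) and 0 rose (all genes: 3.54%). The genes that fell were not all raised on naïve replicate 1: Psmb9 read 2318 there and 11587 and 11119 on naïve replicates 3 and 5. Those that fell include Ifi27l2a (log2 fold change -3.73, SE 0.62, limma adjusted p = 0.00942), Nmi, the partner of Ifi35 (-2.49, SE 0.42, limma adjusted p = 0.0102), Psmb9, an immunoproteasome subunit (-3.78, SE 0.62, limma adjusted p = 0.00877), and the chemokine Ccl5, which was at least 5.33-fold lower (limma adjusted p = 0.0196). Ifi27l2a and Psmb9 stayed called with any single array left out. Nmi missed the threshold without iLarge T replicate 2 or 4 (0.0508 and 0.0525), and Ccl5 without naïve replicate 3 or 5 (0.112 and 0.0844) or without iLarge T replicate 2 or 6 (0.0566 and 0.0633). Cxcl10, a chemokine of T cells, read 8659, 928 and 1402 on the naïve and 324, 235 and 398 on the iLarge T arrays, without overlap, and was not called (limma adjusted p = 0.0674).

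Among MHC class I genes, also interferon-inducible, H2-K1, the class I heavy chain, whose H-2Kb form gave the transgene its promoter, read 32789, 108283 and 100207 on the naïve arrays and 7425, 8530 and 18788 on the iLarge T arrays. Naïve replicate 1 was thus the lowest naïve array for H2-K1, and its fall in iLarge T cells was called (log2 fold change -2.74, SE 0.49, limma adjusted p = 0.0125). That call was lost with iLarge T replicate 2 or 4 left out (0.0676 and 0.0689), and with naïve replicate 3 left out (0.0549). Of the 8 class I pathway genes measured, naïve replicate 1 was at least 2-fold below both other naïve arrays for 3, H2-K1, H2-M3 and Tap2 (all genes: 14.2%) and above both for 0. H2-K1 and the peptide transporter Tap1 were called lower (all genes: 3.26%) and 0 higher (all genes: 3.54%). Tap1 is also among the genes of the second list that fell. Its call was lost with naïve replicate 3 or 5 left out (limma adjusted p = 0.0852 and 0.0779). The same held for iLarge T replicate 2 or 4 (limma adjusted p = 0.0538 and 0.0816). The H2 genes are near-identical, and signal can be shared among their probe sets.

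**Figure D4:**
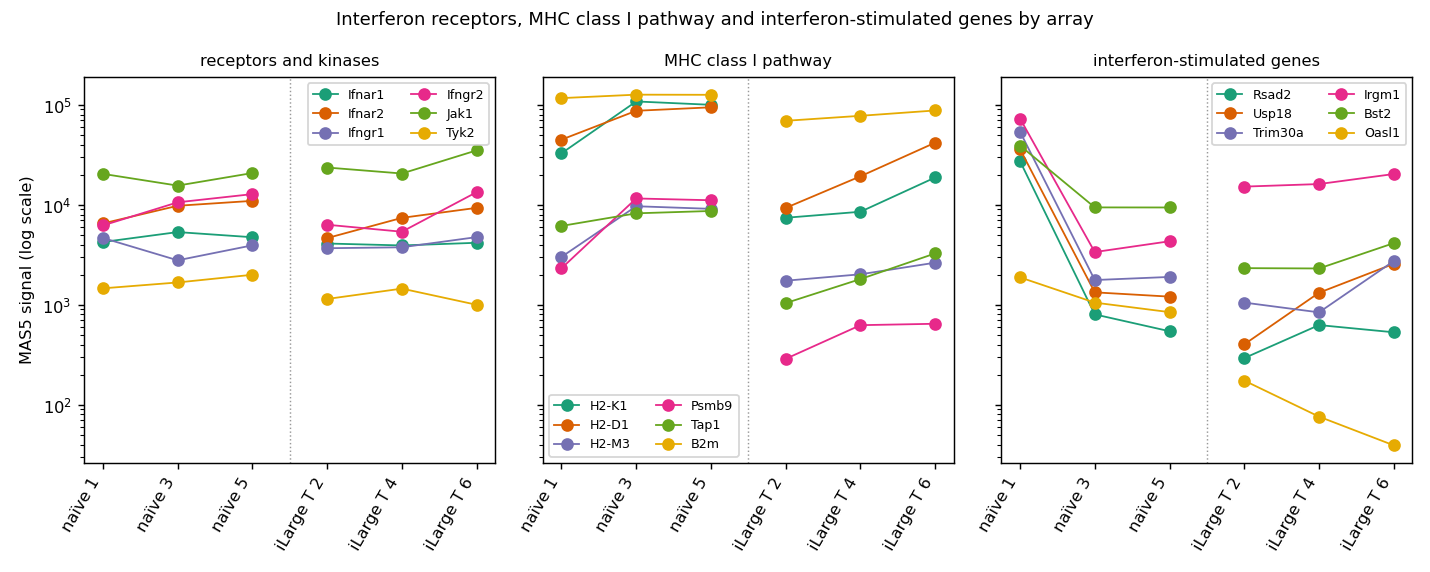
MAS5 signal (log axis) on each array for 6 receptor and kinase genes, 6 MHC class I pathway genes and 6 members. On naïve replicate 1 Ifngr2 is at 6223 against 10602 and 12808 on the other naïve arrays, H2-K1 is at 32789 against 108283 and 100207 on the other naïve arrays, and Rsad2 is at 27366 against at most 802 on the other 5 arrays.

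Genes outside the pathway that followed the members most closely were sought among 9067 genes with a mean signal above the median. By Pearson correlation over the 6 arrays with the mean of the members' log2 signals, Tiam1 (r = 0.992), an activator of Rac, came first. After it came the growth factor Bmp4 (0.982), the ephrin Efnb2 (0.978), Mvd (0.976), an enzyme of cholesterol synthesis, and Gbp7 (0.974), which is on the second list of interferon-stimulated genes. In all, 64 genes had an r above 0.9, among them 9 of the 29 genes of the second list that were compared. Bmp4 read 70836, 5674 and 6450 on the naïve and 5015, 5063 and 7274 on the iLarge T arrays. The 5 named genes were highest on naïve replicate 1, and with that array standing apart an r over 6 arrays is a description only.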

How the data were processed

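Total RNA of 3 naïve Large T BMSC and 3 iLarge T BMSC pools was hybridized to Affymetrix mouse genome arrays. The authors deposited intensity values computed with the MAS5 algorithm, on a linear scale and scaled to a trimmed mean of 2500 on each array. Detection calls are not used here, and 6 arrays limit the precision. Per the methods the pools came from separate experiments, so p-values measure the spread between pools, not between animals.

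Of 45101 probe sets, 64 controls were left out, and of the 45037 others 34945 had 1 gene symbol, 932 several and 9160 none in the annotation used. Genes were named only from the first kind, and 34741 of these probe sets were found in the RefSeq gene table. Signals were log2-transformed and tested with limma 3.58.1 in R 4.3.3 (lmFit, eBayes with an intensity trend), after the script had been tested on simulated data. Benjamini-Hochberg adjustment ran over all 45037 probe sets, although the text gives 1 probe set a gene. Figures and counts used Python 3.11.15 (matplotlib 3.10.9, pandas 2.3.3, numpy 2.4.6, scipy 1.17.1).

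The members, gene lists and tests were chosen with earlier results of these data known. Array values are given for members that were called, did not overlap, or were among the 12 with the largest log2 fold change or the 12 with the largest difference of naïve replicate 1. Of the other lists, called genes (up to 4, and all 8 of the second list of interferon-stimulated genes) and a fixed set are named. Mean values of single members outside that rule are given as folds. Results were recomputed with arrays left out singly, with other choices of probe set, with 16 added before log2, with signals raised to the 40th percentile, without dim probe sets, after quantile normalization, by limma without the trend and by the methods' t-test on linear and on log2 signals.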

Additional observations from a re-analysis of the deposited data

How the results depend on the processing

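Of 22 named members, all but Zbp1, Mx1, Irgm1, Oas3, Ifit3, Cmpk2, Iigp1 and Rtp4 kept the direction of their fold change under all 16 alternatives. The count of members called lower, 3 in the comparison of 3 with 3 arrays, was 0 by the methods' t-test on log2 signals, 0 by the methods' t-test on linear signals and 0 by limma without the trend. In these settings 7, 36 and 48 of 18193 genes were called lower. The paper reported many more genes at the same thresholds with its unpaired t-test, a difference that was not resolved here. The count of members called lower was 9 with signals raised to the 40th percentile (850 of all genes lower), and between 0 and 8 when arrays were left out. That of members called higher ran from 0 to 2 and that of members whose groups do not overlap from 9 to 23 when arrays were left out. The 23 came with 2 arrays a group. Groups of fewer arrays overlap less often in any gene. Over all genes, 13.1% lay wholly below and 14.5% wholly above with 6 arrays, and 23.3% and 24.5% without naïve replicate 1. These shares are not given for the other settings, so the rise is no result about the members. The median log2 fold change of the members stayed negative, from -1.76 to -0.03, lowest in size without naïve replicate 1. The cause of these shifts was not tested.

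On linear signals the log2 ratio of means turned to -0.58 for Zbp1, -0.78 for Mx1 and -0.64 for Irgm1, all 3 highest on naïve replicate 1. Raising signals to the 40th percentile turned Oas3 to 0.056 and Mx1 to -0.39, both near background on most arrays. Leaving out arrays gave log2 fold changes from -1.50 to 0.52 for Oas3, -1.74 to 0.16 for Ifit3, -2.36 to 0.11 for Cmpk2, -2.12 to 0.74 for Iigp1, -0.055 to 2.16 for Irgm1 and -2.34 to 0.13 for Rtp4. The naïve numbers are 1, 3 and 5 and the iLarge T numbers 2, 4 and 6. No paired analysis was possible because the groups share no replicate number, and no source used here states which arrays belong to the same experiment.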
